A study of Mus musculus with 12 samples.

Results

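Cdhr1, Eomes, Doc2g, Tbx21 and Prok2, genes known from neurons of the olfactory bulb, were measured in a study of mouse cortex, and all 5 were highest in the same single library, in which 20.1% of 15993 genes were also highest. They were picked by symbol, 5 of the 53379 genes in the count table, because of their excess in that library, replicate 3 of the injured mice on the purified diet. Its values are therefore given as a description without a test, the tests below leave it out, and fold changes fitted with it, which stand only in the closing section, are descriptions too.

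All groups were wild-type C57BL/6J mice, and cortical tissue was taken 6 months after the injury or sham procedure. The 4 groups were injured and sham mice on a cyclic high fat diet with fish oil, and injured and sham mice on a purified control diet given throughout, with 3 libraries in each group, numbered 2, 3 and 4. Injury was a repetitive closed head injury below the grade of mild traumatic brain injury. Fat content and fish oil change together between the diets. The labels give neither the age of the mice nor the edges of the dissection, and do not tie libraries to separate animals, so p-values reflect only how far these libraries spread, which may be technical. Total counts ran from 46362158 to 70754854 per library, and values below are CPM, counts relative to library size after scaling with TMM factors. Because this is bulk tissue, more cells of a type and more RNA per cell cannot be told apart.

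The olfactory bulb lies in front of the cortex and relays smell. Mitral and tufted cells are its glutamatergic output neurons, while granule and periglomerular cells are inhibitory interneurons that are replaced through life by neuroblasts migrating forward from the wall of the lateral ventricle. Cdhr1 encodes a cadherin-related membrane protein that is abundant in photoreceptors and in mitral and tufted cells. Eomes (Tbr2) and Tbx21 (T-bet) encode T-box transcription factors of mitral and tufted cells that also serve in T and NK cells. Doc2g encodes a C2-domain protein of the Doc2 family, and Prok2 a secreted prokineticin that attracts neuroblasts in the bulb and is a rhythmic signal of the suprachiasmatic nucleus.

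Promoter windows of 3 members are shown because these genes were high together: Cdhr1 had the highest level, Eomes the largest ratio to the other libraries, and Doc2g was the only member whose window held a motif searched. Each window is from RefSeq (GRCm38.p6), runs from 250 bases before to 50 after the annotated start and is written on the strand of its gene; capitals mark GTGTGA or its reverse complement TCACAC. The windows are chr14:37098298-37098597 (minus strand) for Cdhr1, chr9:118477939-118478238 (plus strand) for Eomes and chr19:4003135-4003434 (plus strand) for Doc2g.
Cdhr1: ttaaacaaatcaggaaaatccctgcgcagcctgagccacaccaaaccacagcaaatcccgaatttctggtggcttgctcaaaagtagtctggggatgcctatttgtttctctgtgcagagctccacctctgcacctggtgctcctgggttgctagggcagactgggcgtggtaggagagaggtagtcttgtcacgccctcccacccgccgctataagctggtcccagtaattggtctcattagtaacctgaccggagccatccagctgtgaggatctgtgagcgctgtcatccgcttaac
Eomes: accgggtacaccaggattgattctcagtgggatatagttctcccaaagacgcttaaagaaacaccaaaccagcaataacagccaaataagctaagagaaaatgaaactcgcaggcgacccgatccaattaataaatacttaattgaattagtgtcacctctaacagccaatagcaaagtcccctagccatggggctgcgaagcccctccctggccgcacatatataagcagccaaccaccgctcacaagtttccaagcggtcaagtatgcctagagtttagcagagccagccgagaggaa
Doc2g: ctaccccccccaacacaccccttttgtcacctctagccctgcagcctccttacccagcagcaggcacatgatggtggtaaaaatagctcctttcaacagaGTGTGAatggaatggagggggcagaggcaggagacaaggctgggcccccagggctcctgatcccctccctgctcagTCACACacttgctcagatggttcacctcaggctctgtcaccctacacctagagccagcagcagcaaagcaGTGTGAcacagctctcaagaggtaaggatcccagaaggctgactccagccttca

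All 5 members had a window in the RefSeq table. It was searched on both strands for the T-box half-site GGTGTGA, for its core GTGTGA, which lies inside the half-site, and for the homeodomain core TAATTA. Doc2g held the core 3 times, at positions -150 and -4 on its own strand and at -74 on the other, and held neither of the other motifs. The letters of the 3 motifs were not in the windows of Cdhr1, Eomes, Tbx21 and Prok2. Of all 32851 promoter windows of that length, 14.5% held the core, 3.98% the half-site and 5.29% the homeodomain core, beside 1 of the 5 members with the core and 0 with the others. The windows also differed in base composition, with a GC content of 54.0% for Cdhr1, 47.3% for Eomes, 57.0% for Doc2g, 62.0% for Tbx21 and 73.7% for Prok2, against a median of 52.7% over all windows.

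Cdhr1 was by far the most abundant member. The gene (ENSMUSG00000021803.10) spans chr14:37077857-37098347 on the minus strand of GRCm38 and no other annotated gene overlaps it. It had 25591 counts, or 522 CPM, in purified injured replicate 3. The other libraries held 257, 615 and 97 counts in fish oil injured mice, 1360, 146 and 456 in fish oil sham mice, 404 and 833 in purified injured replicates 2 and 4, and 207, 126 and 456 in purified sham mice. Replicate 3 stood 20.2-fold above the next library, fish oil sham replicate 2 at 25.9 CPM, and 70.8-fold above the median of the other 11. It alone held 83.8% of all Cdhr1 counts in the study. Unlike the other members, Cdhr1 was well counted in every library and reached 1 CPM outside replicate 3, and among the 11 others its CPM still ran from 1.87 to 25.9.

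**Figure D1:**
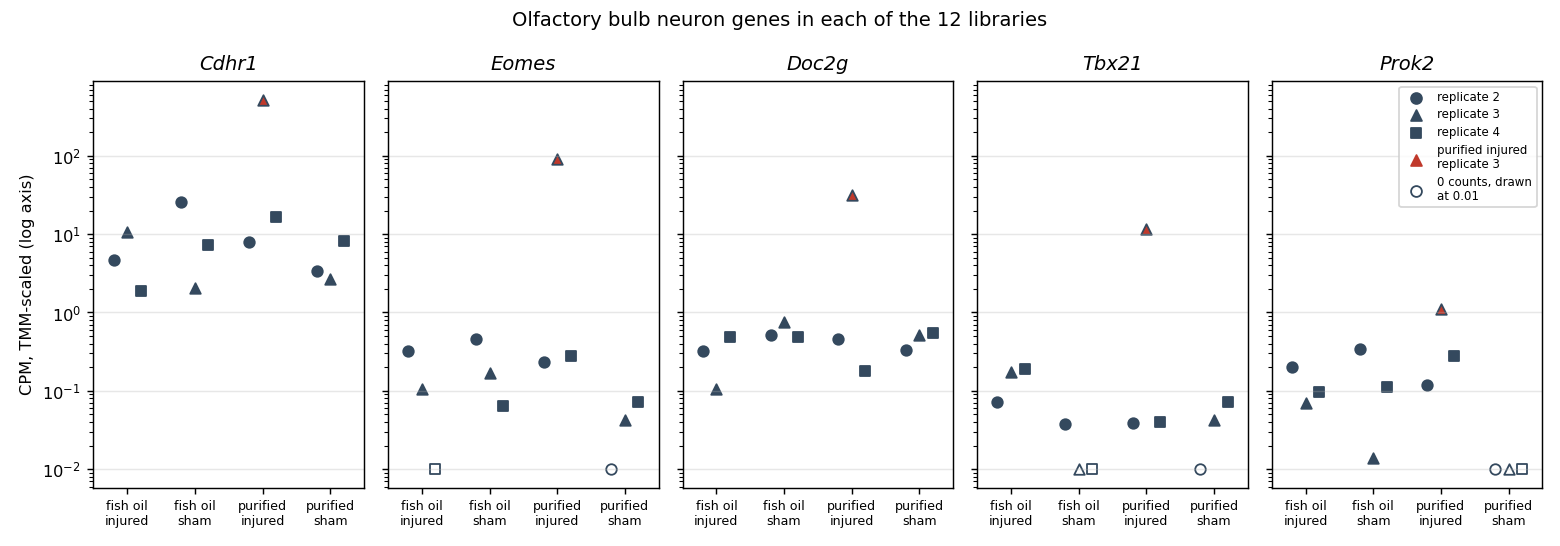
Level of each olfactory bulb gene in the 12 libraries. The vertical log axis gives TMM-scaled CPM, the 4 groups stand side by side with a marker shape for each replicate number, the red triangle is purified injured replicate 3, and open markers are libraries with 0 counts, drawn at 0.01. The red triangle is the highest point for every gene, from 522 CPM for Cdhr1 to 1.12 CPM for Prok2, and Prok2 has open markers in all 3 purified sham libraries.

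Both T-box factors were clearly counted in that library and nearly absent from the others. Eomes (ENSMUSG00000032446.14, chr9:118478212-118486132, plus strand) had 4470 counts or 91.1 CPM in purified injured replicate 3. It had 18, 6 and 0 counts in fish oil injured mice, 24, 12 and 4 in fish oil sham mice, 12 and 14 in purified injured replicates 2 and 4, and 0, 2 and 4 in purified sham mice. Its level in replicate 3 was thus 200-fold the next highest library, at 0.456 CPM, and that library held 97.9% of its counts.

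Tbx21 (ENSMUSG00000001444.2, chr11:97098071-97115331, minus strand) had 577 counts or 11.8 CPM in purified injured replicate 3. It had 4, 10 and 10 counts in fish oil injured mice, 2, 0 and 0 in fish oil sham mice, 2 and 2 in purified injured replicates 2 and 4, and 0, 2 and 4 in purified sham mice. The ratio to the next library was 61.1, and 94.1% of its counts came from replicate 3. Outside that library no count of Tbx21 exceeded 10.

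Doc2g (ENSMUSG00000024871.10) had 1542 counts or 31.4 CPM in purified injured replicate 3. It had 18, 6 and 25 counts in fish oil injured mice, 27, 53 and 30 in fish oil sham mice, 23 and 9 in purified injured replicates 2 and 4, and 20, 24 and 31 in purified sham mice. Replicate 3 stood 42.1-fold above the next library, and the others formed a low band of 0.105 to 0.747 CPM with no library at 0. The annotation, which carries a later version of this gene at chr19:4003313-4007005 on the plus strand, places Gm49405 on the same strand over 2504 bases of it. Reads over the shared bases may be split between the 2 genes or left uncounted. Gm49405 had 92 counts in replicate 3 and 21 to 74 in the other libraries.

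Prok2 (ENSMUSG00000030069.15, chr6:99711299-99726392, minus strand) was the weakest member and the one with the smallest excess. It had 55 counts or 1.12 CPM in purified injured replicate 3, 3.27-fold the next library. It had 11, 4 and 5 counts in fish oil injured mice, 18, 1 and 7 in fish oil sham mice, 6 and 14 in purified injured replicates 2 and 4, and 0, 0 and 0 in purified sham mice. Replicate 3 held 45.5% of its counts, the lowest such share of the 5 members. An antisense gene, Gm26748, overlaps it over 622 bases and had 42 counts in replicate 3 and 4 to 37 elsewhere, and since the strand setting of the counting is not given, reads of the 2 cannot be told apart there. Eomes likewise shares 574 bases with the antisense gene Gm33460, which had 6 counts in replicate 3 and 4 in the 11 others together.

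Corrected for exonic length, the members kept the same order in replicate 3. Per kilobase of exon, Cdhr1 stood at 120 CPM, Eomes at 21.9, Doc2g at 10.4, Tbx21 at 4.73 and Prok2 at 0.585. The medians of the other 11 libraries were 1.70 for Cdhr1, 0.159 for Doc2g, 0.0502 for Prok2, 0.0253 for Eomes and 0.0161 for Tbx21 on the same scale. Eomes and Tbx21, which stood above Prok2 in replicate 3, were thus the lowest of the 5 elsewhere.

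The members did not keep a fixed proportion to each other across libraries. In purified injured replicate 3 there were 17.5 Eomes counts per 100 Cdhr1 counts (95% exact interval 16.9 to 18.0), whereas the other 11 libraries had 0 to 8.22. Fish oil sham replicate 2, the next highest library for Cdhr1, had 24 Eomes counts where the ratio of replicate 3 would give 238, and purified injured replicate 4, which followed it for Cdhr1, had 14 where it would give 146. Doc2g behaved differently, with 6.03 counts per 100 Cdhr1 counts in replicate 3 (5.72 to 6.34) inside the 0.976 to 36.3 of the others. Tbx21 stood at 2.25 per 100 Cdhr1 counts in replicate 3, against 0 to 10.3 elsewhere. Only fish oil injured replicate 4 was above it, with 10 Tbx21 and 97 Cdhr1 counts. Prok2 stood at 0.215 in replicate 3, below the 0.650 to 5.15 of the other libraries with a Prok2 count. The purified sham libraries had 0 counts of Prok2. Intervals cover counting error only and are too narrow where both mates of a read pair were counted. The members were picked for their excess in replicate 3, so its ratios, and the counts derived from them, are descriptions.

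**Figure D2:**
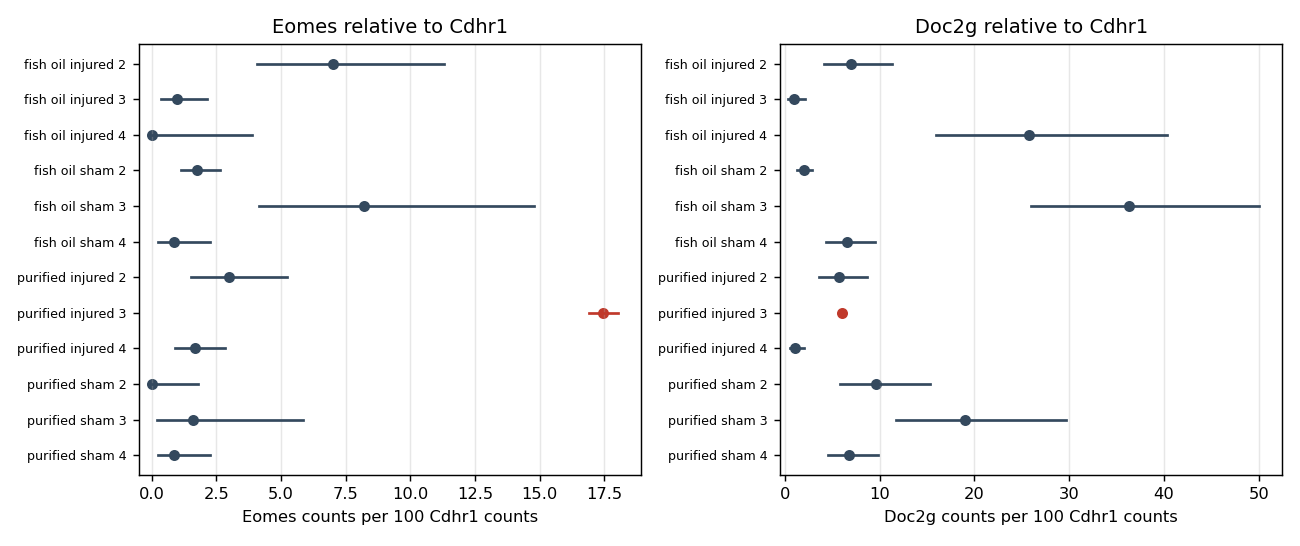
Counts of Eomes (left) and Doc2g (right) per 100 counts of Cdhr1 in each library, with 95% exact intervals as bars and purified injured replicate 3 in red. Eomes stands at 17.5 in the red library and at 8.22 or less in every other, while Doc2g at 6.03 lies within the 0.976 to 36.3 of the rest.

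In purified injured replicate 3, 11024 protein-coding genes had at least 5 CPM, with predicted genes, pseudogenes and RIKEN clones left out by symbol. In order of their ratio to the highest of the other libraries, Eomes was in place 3, Tbx21 in 8, Doc2g in 12 and Cdhr1 in 22. Prok2 was below 5 CPM. The members were picked for their excess in this library and the 5 CPM cut used it too, so their high places follow from that choice. The genes around them included several named as bulb genes. Omp, the olfactory marker protein of mature sensory neurons, had 62.0 CPM in replicate 3 and at most 0.886 elsewhere. S100a5, a calcium-binding protein of sensory neurons, had 38.6 CPM against at most 0.177. Th, tyrosine hydroxylase of dopaminergic periglomerular cells, had 107 CPM against at most 4.41, and Scgn, a calcium-binding protein of bulb interneurons, 28.8 against 1.33. Ms4a15 led the order with 58.8 CPM against 0.140, and Hephl1, Gdpd4, Frmd7, Adamts19, Mgam, Fam19a3, Stoml3, Clca3a1, Vipr2 and Sp8 completed the first 18, with ratios of 24.3 to 163. Among genes of this kind with at least 5 CPM in the library in question, 64 in replicate 3 exceeded 5 times the highest of the others. There was 1 such gene each in fish oil sham replicate 2 and purified sham replicate 2, and 0 in the remaining 9 libraries. Those 64 genes include Eomes, Tbx21, Doc2g and Cdhr1.

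Other genes of the bulb were read from lists, beside the 15993 genes with at least 1 CPM in some library, of which 20.1% were highest and 19.2% lowest in purified injured replicate 3. Of the bulb interneuron genes 17 of 20 were highest there, with a median ratio of 5.66 to the median of the other 11 libraries, against 0.992 over all genes. Calb2, a marker of periglomerular and granule cells, had 260 CPM against 6.68 to 33.5, and Dlx1, a homeodomain factor of inhibitory neurons, 128 against 11.3 to 17.1. Of the other 3, Calb1 was lowest at 61.7 CPM against 96.2 to 237, and Gad2 and Etv1 lay inside the range of the other libraries. Of the genes of ensheathing glia and sensory axons, which enter the bulb from the nose, 6 of 13, such as Foxd3 with 54 counts and 0 in all 11 others, reached 1 CPM only in replicate 3 and so could not but be highest. Of the 7 that reached it elsewhere 3 were highest, among them Fabp7 at 199 CPM against at most 39.3, beside 19.1% of all 15794 genes that reached it elsewhere.

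The remaining output neuron genes did not all share the excess of Cdhr1 and Eomes. Of 13 that reached 1 CPM in another library, 4 were highest in replicate 3 and 2 lowest, beside 19.1% and 19.4% of all such genes. The 13 genes had a median ratio of 0.970. Nmb, a neuropeptide of tufted cells, had 13.6 CPM against at most 1.37, Lbhd2, at 1 CPM only in replicate 3, had 2.32 against at most 0.761, Ebf3 4.65 against at most 1.92 and Reln, secreted by mitral cells and by scattered cortical neurons, 412 against 87.1 to 289. Tbr1, the T-box factor that mitral cells share with deep cortical layers, was instead lowest at 45.8 CPM against 71.8 to 141, and Thy1, common to many projection neurons, lowest at 250 against 385 to 477. Of 11 neuroblast genes at 1 CPM in another library 2 were highest, close to the share of all genes, namely Dcx at 262 CPM against 60.6 to 85.7 and Cd24a at 26.7 against at most 8.61, while Igfbpl1 had 3.14 against at most 0.654.

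**Figure D3:**
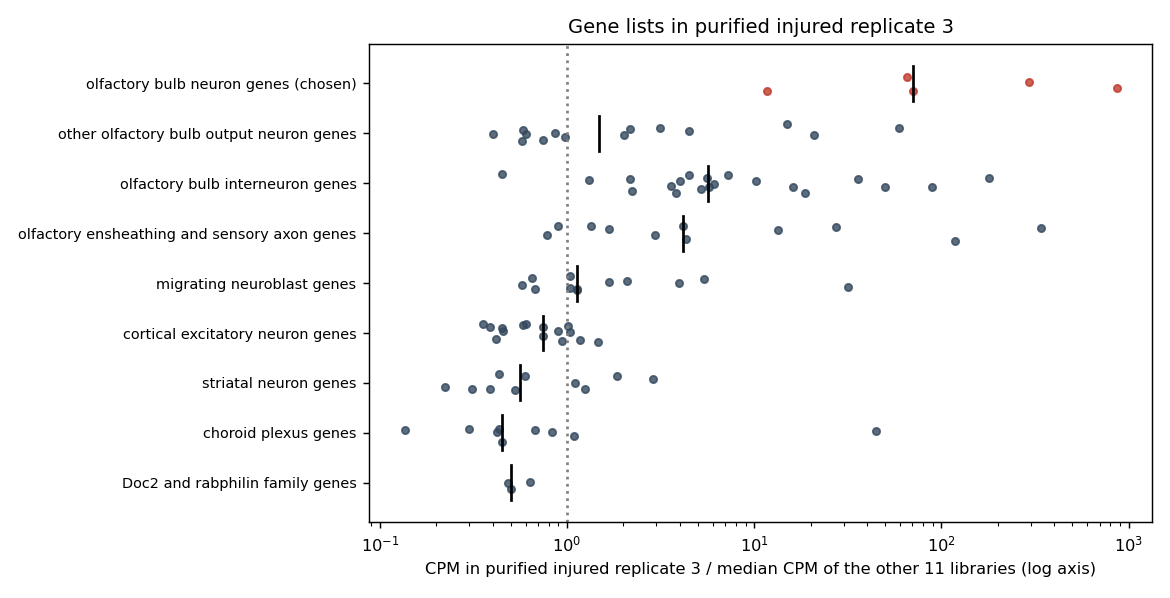
Ratio of CPM in purified injured replicate 3 to the median CPM of the other 11 libraries, on a log axis, for each gene of 9 lists. Each point is a gene, the black bar is the median of the list, the dotted line is a ratio of 1, and genes whose other libraries have a median of 0 are not drawn. The 5 chosen genes (red) lie from 11.6 to 865, the interneuron list has a median of 5.66, and the medians of the cortical, striatal, choroid plexus and Doc2 family lists lie below 1. Genes that reached 1 CPM only in replicate 3 are drawn too, which raises some medians. As drawn, the output neuron and ensheathing lists have medians of 1.49 and 4.18. Over genes that reached 1 CPM elsewhere these were 0.970 and 1.67.

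Families and partners of the members showed no matching excess. Because 20.1% of all genes were highest in replicate 3, few or none highest is a usual count for lists this short. Of 6 other T-box genes measured Mga was the only one highest, at 164 CPM against at most 159. The other Doc2 family genes were low: Doc2a had 13.4 CPM in replicate 3 against 16.1 to 29.3, Rph3a, which encodes rabphilin, 166 against 259 to 483, and Doc2b 13.5 against 8.33 to 74.9. Of the cadherin-related genes none of 3 measured was highest, with Cdhr3 at 4.56 CPM against 1.18 to 5.70. Prokr2, the receptor for Prok2 that neuroblasts carry, had 4.83 CPM against 0.845 to 7.41, inside the range of the other libraries, and no gene of the prokineticin pathway list was highest.

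Markers of other places where these genes are known were also read, beside the 20.1% of all genes that were highest in replicate 3. Of 12 T and NK cell genes none reached 1 CPM in any library, and their summed level was 0.611 CPM in replicate 3 against 0.197 to 0.818 elsewhere, while Eomes and Tbx21 stood at 91.1 and 11.8 CPM. Photoreceptor and pineal genes summed to 6.38 CPM against 2.89 to 21.9. Genes of neutrophils, which are known to make Prok2, summed to 3.34 CPM against 0.308 to 3.56, and in the list of suprachiasmatic and hypothalamic genes 0 of 2 measured were highest, with Vip at 50.5 CPM against 23.2 to 72.0. Cerebellar genes summed to 53.1 CPM against 18.4 to 45.0, with 3 of 4 highest, among them Ppp1r17 at 3.44 against at most 1.09. Of 5 hippocampal genes 2 were highest, Zbtb20 at 220 CPM against 75.5 to 141 and Trpc6 at 18.2 against 5.78 to 15.9. Prox1 of that list was instead lowest, at 10.8 CPM against 15.6 to 27.3, and C1ql2 had 0.204 against a median of 1.16. The 6 thalamic genes had a median ratio of 1.03, with Calb2 the only one highest. The part of these cells in the levels of the 5 genes was not tested.

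Genes of cortex and striatum were present in replicate 3, more of them below the median of the other libraries than above it. None of 15 cortical excitatory neuron genes was highest and 4 were lowest, beside 20.1% and 19.2% of all genes. The cortical genes had a median ratio of 0.742 and a sum of 1362 CPM against 1306 to 2157. Neurod2 had 9.90 CPM against 12.9 to 34.4, Emx1 0.754 against 0.894 to 3.23 and Tle4 48.8 against 57.6 to 81.6. Another 4 cortical genes lay above the median of the other libraries, namely Ccn2 at 31.9 CPM against a median of 21.9, Foxp2, Cux2 and Bcl11b. Striatal neuron genes had a median ratio of 0.561, with Ppp1r1b at 21.7 CPM against 31.9 to 382 and Drd1 at 6.01 against 8.41 to 135. Of the 10 striatal genes 4 lay above the median of the other libraries, namely Penk at 105 CPM against a median of 36.6, Adora2a, Drd2 and Rgs9. Genes of the islands of Calleja and olfactory tubercle had a median ratio of 0.560. Choroid plexus genes had a median ratio of 0.451, although Aqp1, a water channel that other cells also make, was highest at 32.5 CPM against 0.285 to 21.5.

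Over the other 11 libraries the level of Cdhr1 varied widely between libraries of a group. It averaged 5.78 ± 4.56 CPM in fish oil injured and 11.8 ± 12.5 CPM in fish oil sham mice (SD, n = 3 each). It averaged 12.3 ± 6.16 CPM in purified injured replicates 2 and 4 (SD, n = 2) and 4.74 ± 2.95 CPM in purified sham mice (SD, n = 3). With replicate 3 the purified injured mean became 182 ± 294 CPM (SD, n = 3), with an SD above the mean. In order of level, purified injured without replicate 3 and fish oil sham led and fish oil injured and purified sham followed, with each pair of neighbours differing by less than the larger of its SDs. The highest of the 11, fish oil sham replicate 2, also had a striatal gene sum of 2127 CPM against 160 to 856 in the other 11 libraries and an interneuron gene sum of 2222 CPM against 1145 to 1549 in the other 10 without purified injured replicate 3; whether these moved Cdhr1 was not tested.

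The genes whose profile over these 11 libraries was most like that of Cdhr1, among 13041 with a mean of at least 1 CPM, were Qsox2, Slc30a10, Synpr, Fam102b, Ypel2, Cdo1, Ndst4 and Lmo7. Pearson's r of log2(CPM + 0.1) ran from 0.951 for Qsox2 to 0.934 for Lmo7, over libraries that share a tissue label and a scaling, and is given as a description. Each of these genes stood above its mean over the 11 libraries in fish oil sham replicate 2, where Cdhr1 was also highest. Synpr had 272 CPM there against a mean of 134, Ndst4 49.5 against 18.7 and Qsox2 36.5 against 30.4. How far r rests on that library was not tested. Synpr, the vesicle protein synaptoporin of bulb interneurons and other neurons, was also high in replicate 3 at 513 CPM, whereas Qsox2 there had 34.7 CPM and Lmo7 47.0, close to or below the values elsewhere. Among the members, Eomes had an r of 0.64 with Cdhr1, Prok2 0.65, Tbx21 -0.0021 and Doc2g -0.42, where few counts of each limit the value.

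Whether injury or diet changed these genes was asked without replicate 3. With edgeR's quasi-likelihood test and Benjamini-Hochberg adjustment over 19773 genes, 0 of the 4 members that passed the filter on low counts differed in any of the 7 comparisons. Over all genes, 0 (0.0%) passed in each comparison except diet in injured mice, where 1 gene (0.00506%), Dctn4, did. At an unadjusted p under 0.05 there were 876 to 1293 genes per comparison, among them Prok2 in 5 comparisons and no other member. DESeq2 called 2 to 36 genes and limma-voom 0 to 1, and neither called a member. The low counts leave wide errors, so these tests do not show that the genes were equal between groups.

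For injury on the purified diet, the comparison that held replicate 3, no member passed the test once that library was left out. Cdhr1 had 7.96 and 16.7 CPM in purified injured replicates 2 and 4, against 3.42, 2.68 and 8.13 in purified sham mice, a log2 fold change of 1.39 ± 1.00 (SE; adjusted p = 0.861, edgeR). Eomes had 0.236 and 0.280 CPM, against 0, 0.0426 and 0.0713, with 2.74 ± 1.35 (adjusted p = 0.861, edgeR). Those Eomes values did not overlap, as for 9.27% of genes in that direction. Doc2g had 0.453 and 0.180 CPM, against 0.331, 0.511 and 0.553, with -0.53 ± 0.64 (adjusted p = 0.898, edgeR).

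Prok2 was listed with 0 counts in all purified sham libraries. It had 6 and 14 counts in purified injured replicates 2 and 4, and 18, 1 and 7 in fish oil sham mice, where 1 library held most of them. A count of 0 among the 162959513 of the purified sham group allows 0.0184 CPM at a floor of 3 counts, and more where both mates of a pair were counted, so no fold is given. The unadjusted p was 0.0053 for injury and 0.0064 for diet, and neither passed adjustment, at 0.861 and 0.840 (edgeR). In both comparisons its groups did not overlap, as for 9.27% of genes between the injured and sham groups and for 4.88% between the diets in sham mice.

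On the fish oil diet the direction for Cdhr1 hung on 1 library. Fish oil injured mice had 4.67, 10.8 and 1.87 CPM, against 25.9, 2.06 and 7.36 in fish oil sham mice, a log2 fold change of -1.03 ± 0.91 (SE; adjusted p = 0.997, edgeR) that became 0.29 ± 0.83 without fish oil sham replicate 2. Eomes turned in the same way, -0.65 ± 1.11 with that library and 0.28 ± 1.23 without it. Prok2 stood at -0.33 ± 1.01, and at 0.94 ± 1.09 without it. Doc2g had lower values in each fish oil injured library, at 0.327, 0.105 and 0.481 CPM, against 0.513, 0.747 and 0.484, and its log2 fold change was -0.94 ± 0.57 (adjusted p = 0.997, edgeR). The nearest 2 of these values, 0.481 and 0.484, almost met, and 4.49% of genes had no overlap in that direction.

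Tbx21 failed the filter on low counts and was tested alone by exact two-sided permutation of log2(CPM + 0.1). Fish oil injured mice had 0.0727, 0.175 and 0.192 CPM, against 0.0380, 0 and 0 in fish oil sham mice, without overlap, as for 3.91% of genes in that direction. The difference of the means was 1.11 with p = 0.1, the smallest that 3 against 3 libraries can give in this exact test. On the purified diet, without purified injured replicate 3, the Tbx21 difference for injury was only 0.053. Averaged over both diets, injury gave a difference of 0.58 with an exact permutation p of 0.08, where the smallest possible was 0.005. That average thus came mostly from the fish oil diet. Between the diets in sham mice the Tbx21 difference was -0.27, with an exact permutation p of 0.4. Diet averaged over injury states gave a difference of 0.25 with an exact permutation p of 0.39. Choroid plexus gene sums differed along with Tbx21 on the fish oil diet. They were 647, 4186 and 4115 CPM in fish oil injured mice, against 281, 411 and 246 in fish oil sham mice. Their part in the Tbx21 difference was not tested. T and NK cell gene sums were 0.472, 0.474 and 0.327 CPM in fish oil injured mice, against 0.818, 0.197 and 0.710 in fish oil sham mice. The part of these cells in the Tbx21 difference was not tested either.

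No member passed the test between the diets. In sham mice the log2 fold changes for fish oil over purified diet were 1.32 ± 0.92 for Cdhr1, which became -0.0024 ± 0.83 without fish oil sham replicate 2, 2.55 ± 1.26 for Eomes, which became 1.61 ± 1.35 without it, and 0.34 ± 0.55 for Doc2g (SE; adjusted p from 0.840 to 0.907, edgeR). Bulb interneuron genes leaned the same way in that comparison, 19 of 20 above 0 with a median of 0.60, against 52.9% above 0 and a median of 0.02 over all genes, but without that library 12 of 20 were above 0 with a median of 0.06. In injured mice the values were -1.10 ± 0.99 for Cdhr1, -0.84 ± 1.22 for Eomes, -0.07 ± 0.64 for Doc2g and -0.70 ± 1.11 for Prok2 (adjusted p from 0.896 to 0.993, edgeR). The sign of Doc2g turned there without purified injured replicate 2, at 0.74, or fish oil injured replicate 3, at 0.34, and that of Prok2 without purified injured replicate 4, at 0.035. Tbx21 had no overlap there, with 0.0727 to 0.192 CPM in fish oil injured mice, against 0.0394 and 0.0400 in purified injured replicates 2 and 4, and its difference of 0.78 had an exact permutation p of 0.2, while the smallest possible was 0.1; 7.24% of genes had no overlap in that direction.

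Averaged over diets, injury gave 0.18 ± 0.68 for Cdhr1, 1.04 ± 0.87 for Eomes and -0.74 ± 0.43 for Doc2g, and averaged over injury states, diet gave 0.11 ± 0.68, 0.86 ± 0.88 and 0.13 ± 0.43 for the same genes (log2, SE). The interaction, the injury effect on fish oil minus that on the purified diet, was -2.41 ± 1.35 for Cdhr1, -3.39 ± 1.75 for Eomes and -0.41 ± 0.85 for Doc2g (log2, SE; adjusted p from 0.889 to 0.950, edgeR). None of these passed the threshold of 0.05. Without fish oil sham replicate 2 the interaction became -1.10 ± 1.16 for Cdhr1 and -2.45 ± 1.80 for Eomes, the injury average 0.84 for Cdhr1 and 1.51 for Eomes, and the diet average 0.39 for Eomes. Leaving out single libraries turned the sign of the Cdhr1 averages, to -0.23 for injury without fish oil injured replicate 3 and to -0.55 for diet without fish oil sham replicate 2, of the Doc2g diet average, to -0.13 without purified injured replicate 4, and of the Doc2g interaction, to 0.41 without purified injured replicate 2. Prok2, whose fits rest on a group at 0, had unadjusted p of 0.017 for injury, 0.032 for diet and 0.0099 for the interaction, with adjusted p of 0.917, 0.728 and 0.889 (edgeR). These comparisons share libraries with the pairwise ones above and add no separate evidence.

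**Figure D4:**
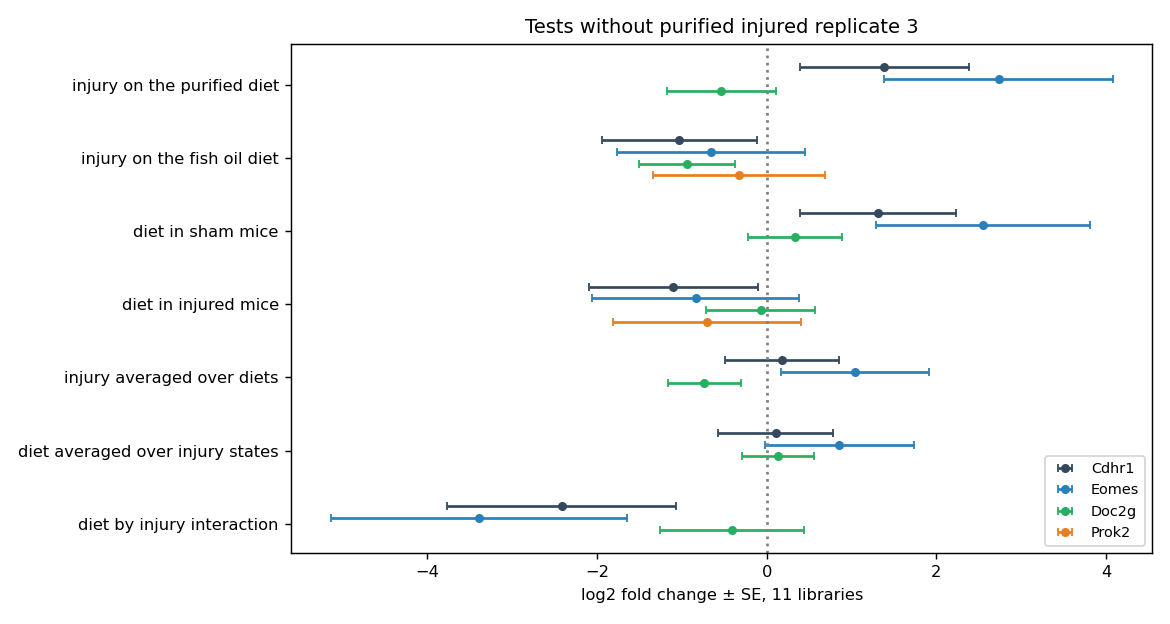
Log2 fold changes of the tested members in the 7 comparisons, from edgeR on the 11 libraries without purified injured replicate 3; points are estimates and bars 1 SE, with the dotted line at 0. Prok2 is drawn only where no fit rests on the purified sham group, in which it had 0 counts, and Tbx21 was not fitted. No value passed an adjusted p of 0.05, and the SEs run from 0.43 to 1.75.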

How the data were processed

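Total RNA from 12 cortical samples was sequenced as strand-preserving paired reads on an Illumina NovaSeq instrument, per the labels' protocols. STAR 2.5.2a, featureCounts 1.4.3-p1 and the mm10 build were used, per the submitters' processing notes; which annotation release and strand setting applied, and how multiply mapping reads were treated, is not given in the sources used here. The table deposited by the authors holds raw counts for each gene, with no normalization. Values of 2 (20514) outnumbered those of 1 (11222), which points to both mates of a pair being counted. Identifiers were matched without version to GENCODE M21 (53274 of 53379 genes). Replicates of a group differed far beyond sampling noise and were each counted once. No column was left unused.

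The 5 genes, the 19 gene lists and the tests were chosen with earlier results of these data known. The lists were taken from cell type and family knowledge, and a gene is named if it is a member, among the 3 of its list with the highest ratio in purified injured replicate 3 (the lowest, for cortex and striatum), among the 15 other genes with the highest such ratio, or among the 8 most like Cdhr1. Other list genes named, such as Calb2, Calb1, Dlx1, Fabp7, Tbr1, Thy1, Reln, Cdhr3, Prokr2, Gad2, Etv1, Adora2a and Drd2, were chosen after their values were seen. A few list genes the rule would name are not reported here.

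Group means were fitted with edgeR 4.0.16 (TMM factors, filterByExpr with a minimum count of 10, glmQLFit and glmQLFTest, robust) on 11 libraries, without the library the genes were chosen on; 19773 genes were tested over 7 comparisons with 7 residual degrees of freedom and a Benjamini-Hochberg threshold of 0.05. Tbx21 failed the filter and had an exact permutation test on log2(CPM + 0.1), with a pseudocount of 0.1. CPM used the TMM factors of all 12 libraries. A group at 0 was given a floor of 3 counts, and ratios of counts exact 95% binomial intervals. The biological coefficient of variation was 0.270, so with these totals the spread between libraries outweighs counting error except for genes of few counts. Alternatives were the 12-library fit, RLE factors, DESeq2 1.42.0, limma-voom (limma 3.58.1), no filter, halved counts, the compared groups only, a replicate block and leaving out each library; purified injured means without each library, and counts of list genes that reach 1 CPM outside purified injured replicate 3, were added after seeing the data. The procedure was tested on simulated data. There DESeq2 made 52 to 62 false calls per comparison and edgeR 7 to 11. Of 100 genes changed 2-fold, DESeq2 recovered 69 to 88 and edgeR 53 to 78.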

Additional observations from a re-analysis of the deposited data

How the results depend on the processing

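No member passed the threshold in any of 473 alternative values on the 11 libraries over 28 pairs of member and comparison. Of these values 453 kept their sign and 20 did not. Prok2 had 0 counts in the purified sham group, so its sign against that group could hardly turn. Some alternatives, such as RLE factors, also differ little from the main fit, so the count of kept signs overstates stability. With all 12 libraries, a description since the genes were chosen on the added one, the log2 fold changes turned to 4.52 for Doc2g with injury on the purified diet, to 1.79 for Doc2g with injury averaged over diets, and, for diet averaged over injury states, to -1.84 for Cdhr1, -2.58 for Eomes and -2.40 for Doc2g. With limma-voom Prok2 turned to 0.44 for injury on fish oil and Cdhr1 to -0.33 for the diet average. Leaving out each library gave these ranges of log2 fold change. For injury on fish oil they were -1.85 to 0.29 for Cdhr1, -2.04 to 0.28 for Eomes and -0.88 to 0.94 for Prok2, and for diet in sham mice -0.0024 to 1.95 for Cdhr1. For diet in injured mice they were -0.59 to 0.74 for Doc2g and -1.24 to 0.035 for Prok2. For injury averaged over diets Cdhr1 had -0.23 to 0.84, and for diet averaged over injury states Cdhr1 had -0.55 to 0.42 and Doc2g -0.13 to 0.54. The interaction of Doc2g ran from -0.92 to 0.41. The other pairs of member and comparison kept their sign. Genes called with DESeq2 numbered 2 for injury on the purified diet, 36 for injury on fish oil, 20 for diet in sham mice, 35 for diet in injured mice, 2 for injury averaged, 18 for diet averaged and 17 for the interaction. Without the filter on low counts 1 gene passed for injury on fish oil, 3 for diet in sham mice, 1 for injury averaged and 3 for diet averaged. For diet in injured mice the 1 gene called became 0 with all 12 libraries and 0 with the compared groups only, and ran from 0 to 29 when single libraries were left out, 29 without purified injured replicate 4, which leaves that arm with 1 library that is assumed to vary like the other groups. For injury on fish oil the leave-outs gave 0 to 9 genes, 9 without fish oil injured replicate 2. The causes were not tested. Deviations from group means correlated from -0.416 to 0.271 between same-numbered libraries and from -0.421 to 0.421 between differently numbered ones. Deviations within a group sum to 0, so these values cannot decide whether the numbers pair libraries. With a replicate block 0 genes were called for diet in injured mice and Prok2 on fish oil stood at 0.025. Mean CPM in purified injured libraries without each in turn ran from 12.3 to 269 for Cdhr1 and from 0.258 to 45.7 for Eomes. Outside purified injured replicate 3, counts of Eomes, Tbx21, Prok2 and Doc2g of 0 to 53 per library limit what can be detected.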
